A study of Homo sapiens with 3 samples.

Results

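The prostate kallikreins are the serine protease genes KLK2, KLK3, KLK4 and KLK15, which lie side by side on chromosome 19 with the transcribed pseudogene KLKP1. These 5 genes were chosen by name, and all 5 were listed in the gene-by-cell count files of each library, which together held 33423 genes. Single cells were profiled by Drop-seq, in which each captured 3' mRNA end carries a cell barcode and a unique molecular identifier (UMI). There were 3 libraries, 1 per group. VCaP parental held cells of the prostate cancer line VCaP kept for 48 h in the vehicle, 0.1% DMSO. The second VCaP library, VCaP-ENZ48, came from cells given 10 µM enzalutamide, an antiandrogen drug, for 48 h. The library LNCaP-ENZ168 came from another prostate cancer line, LNCaP, given 10 µM enzalutamide for 168 h. No vehicle library of LNCaP was analysed here. Line, exposure time, drug and any difference in library preparation thus cannot be told apart when LNCaP-ENZ168 is set against a VCaP library. With 1 library per group no difference has a replicate check, no test was made, and every 95% interval covers counting error only.

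Tissue kallikreins are secreted trypsin-like or chymotrypsin-like proteases made as inactive precursors. KLK3 encodes prostate-specific antigen (PSA), which liquefies the seminal clot and is measured in blood as a marker of prostate cancer. KLK2 encodes a trypsin-like protease that can activate the PSA precursor, KLK4 a protease also known from enamel formation, and KLK15 a trypsin-like protease named prostinogen. In prostate epithelium, androgen hormones raise transcription of KLK2, KLK3 and KLK4.

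After filtering, the libraries held 997 VCaP parental cells with 19515202 UMIs, 947 VCaP-ENZ48 cells with 14301287 UMIs and 944 LNCaP-ENZ168 cells with 6313283 UMIs. The median cell had 17817, 11224 and 5389 UMIs in that order. All 8 luminal prostate epithelial markers checked were detected in every library. KRT8 and KRT18, keratins of luminal cells, were among them. ERG, which VCaP expresses from a gene fusion, had 0 UMIs in LNCaP-ENZ168. Markers of immune, stromal and basal cells, of which 9 of 13 were analysed here, summed to 4.41, 4.75 and 7.92 UMIs per 1000000 UMIs of the library (CPM) in VCaP parental, VCaP-ENZ48 and LNCaP-ENZ168. Each pair of libraries shared 1 barcode. Barcodes whose last letter was N and not a base were 859 of the VCaP parental, 820 of the VCaP-ENZ48 and 205 of the LNCaP-ENZ168 cells. The cause of this difference was not tested.

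In Gencode v44 on GRCh38, KLK15 spanned chr19:50825289-50837213 on the minus strand, KLK3 chr19:50854915-50860764 and KLK2 chr19:50861568-50880567 on the plus strand, and KLK4 chr19:50906351-50911395 on the minus strand. The annotated spans of KLK3 and KLK2 were 803 bases apart, and the 4 protein-coding genes fitted within 86107 bases. KLKP1 lay between KLK2 and KLK4, at chr19:50882096-50896398 on the minus strand, annotated as a long noncoding RNA that contains a second KLKP1 entry of 403 bases typed as a pseudogene. The count files carry 1 KLKP1 row and do not show which entry it counts. KLK15 overlapped 1 gene on the other strand without shared exonic bases, and KLK2, KLK3 and KLK4 overlapped none. KLK2 and KLK3 are close paralogs. Within the last 500 bases of their annotated transcripts, 11 of 4099 KLK2 stretches of 50 bases were found without a mismatch in KLK3. No other pair of the 5 genes shared any. Stretches that differ by few bases were not counted. Reads that fall in the shared stretch cannot be assigned to 1 of these genes, so the count of KLK3 beside abundant KLK2 carries this limit. It extends to the KLK3 ratios between the VCaP libraries and to KLK3 in VCaP cells ranked by KLK2. The share of reads assigned to the wrong gene was not measured.

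The 250 bases ahead of the KLK3 and KLK2 start sites are shown because both genes are known androgen targets and lie next to each other. Their levels differed in opposite ways between the VCaP libraries and LNCaP-ENZ168, and the part of these bases in that was not tested. The bases shown are RefSeq windows of GRCh38.p14, at chr19:50854665-50854914 for KLK3 and chr19:50873189-50873438 for KLK2, both on the plus strand. The RefSeq start used for KLK2 lies inside the Gencode span of KLK2 given above, downstream of that span's first base. The first capitals mark a stretch of 15 bases that resembles an androgen response element, and the second capitals mark TTTATA, the reverse complement of the TATA box letters TATAAA.
KLK3: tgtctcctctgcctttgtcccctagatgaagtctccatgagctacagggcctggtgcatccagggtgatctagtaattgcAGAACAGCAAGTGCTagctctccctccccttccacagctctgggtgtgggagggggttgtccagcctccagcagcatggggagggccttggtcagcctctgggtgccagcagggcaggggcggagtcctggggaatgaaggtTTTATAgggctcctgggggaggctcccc
KLK2: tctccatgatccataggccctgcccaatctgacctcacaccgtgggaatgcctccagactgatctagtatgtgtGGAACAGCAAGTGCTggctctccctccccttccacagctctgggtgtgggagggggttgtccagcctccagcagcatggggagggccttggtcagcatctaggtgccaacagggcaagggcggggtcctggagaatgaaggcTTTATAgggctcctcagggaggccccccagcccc
Over whole windows of 300 bases, from 250 before to 50 after the start, the KLK3 and KLK2 promoters aligned with 79.8% identity over 307 columns, and the longest identical run was 80 bases. The marked stretch lay 170 to 156 bases before the KLK3 start and 176 to 162 bases before the KLK2 start. It differed between them by A1G, with the KLK3 base first and positions counted from 1 at the 5' end of the stretch.

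Motifs were searched on both strands in 35116 RefSeq promoter windows. The full androgen response element, spelled AGAACA, any 3 bases and TGTTCT, was in 1 window of all and in none of the 6 windows of these genes. A looser spelling, AG, any base, ACA, any 4 bases, GT, any base and CT, was in 0.228% of all windows. It matched KLK3 and no window of KLK2, KLK4 or KLK15. This looser form was chosen with the KLK3 element known from general knowledge, so its match there is not a finding. The single arm AGAACA was in 14.8% of all windows and, among these genes, in KLK3 alone, inside the looser match. TATAAA was in 11.5% of all windows and in 3 of the 6 windows, those of KLK3 and KLK2 and 1 of the 2 of KLK15. KLKP1 had no entry in the promoter table.

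**Figure D1:**
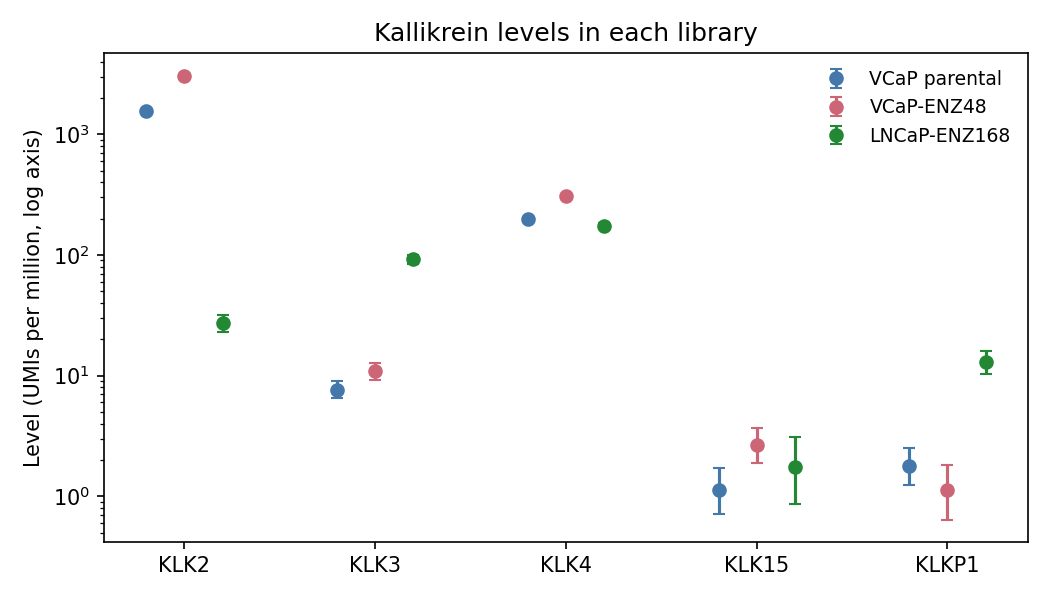
Level of each gene (CPM, log axis) in VCaP parental, VCaP-ENZ48 and LNCaP-ENZ168. Points are sums over the cells of 1 library and bars are exact Poisson 95% intervals for counting error. KLK2 is at 3053 in VCaP-ENZ48 and 27.1 in LNCaP-ENZ168, where KLK3 and KLKP1 are at their highest.

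KLK4 was abundant in all 3 libraries, KLK2 was at its highest in the VCaP libraries, and KLK3 and KLKP1 were at their highest in LNCaP-ENZ168. KLK2 had 1554 CPM in VCaP parental, 3053 CPM in VCaP-ENZ48 and 27.1 CPM in LNCaP-ENZ168. It ranked 85th, 50th and 5848th by UMIs among the genes of those libraries. The intervals of the 3 values did not overlap. KLK3 had 7.64 CPM (6.46 to 8.96) in VCaP parental, 10.9 CPM (9.26 to 12.8) in VCaP-ENZ48 and 91.9 CPM (84.5 to 99.7) in LNCaP-ENZ168. The VCaP intervals did not overlap each other, and both lay far under that of LNCaP-ENZ168.

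KLK4 had 197 CPM (191 to 204) in VCaP parental, 308 CPM (299 to 317) in VCaP-ENZ48 and 174 CPM (164 to 185) in LNCaP-ENZ168. Its order was thus VCaP-ENZ48, VCaP parental, LNCaP-ENZ168, and its highest and lowest values differed by 1.77 times. With TMM scaling it had 255, 326 and 127 CPM in VCaP parental, VCaP-ENZ48 and LNCaP-ENZ168. KLK15 was scarce, with 22 UMIs or 1.13 CPM (0.707 to 1.71) in VCaP parental, 38 UMIs or 2.66 CPM (1.88 to 3.65) in VCaP-ENZ48 and 11 UMIs or 1.74 CPM (0.870 to 3.12) in LNCaP-ENZ168. The LNCaP-ENZ168 interval overlapped both others, so its place in the order was not resolved at this depth. KLKP1, a noncoding transcript, had 35 UMIs or 1.79 CPM (1.25 to 2.49) in VCaP parental, 16 UMIs or 1.12 CPM (0.640 to 1.82) in VCaP-ENZ48 and 82 UMIs or 13.0 CPM (10.3 to 16.1) in LNCaP-ENZ168. The VCaP values of KLKP1 did not differ beyond their counting intervals. Single markers of immune, stromal and basal cells reached up to 1.54 CPM in VCaP parental, 1.75 in VCaP-ENZ48 and 3.48 in LNCaP-ENZ168. KLK15 in VCaP parental and LNCaP-ENZ168, and KLKP1 in VCaP-ENZ48, lay under these values. Ratios and shares that use those levels carry this limit.

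The other tissue kallikreins were scarce. Of 11 such genes 7 were analysed here, none of which reached 1 CPM in any library or had a UMI in LNCaP-ENZ168. The highest was KLK12 with 5 UMIs in VCaP parental. A count of 0 allows up to 0.154 CPM in VCaP parental, 0.210 CPM in VCaP-ENZ48 and 0.475 CPM in LNCaP-ENZ168.

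**Figure D2:**
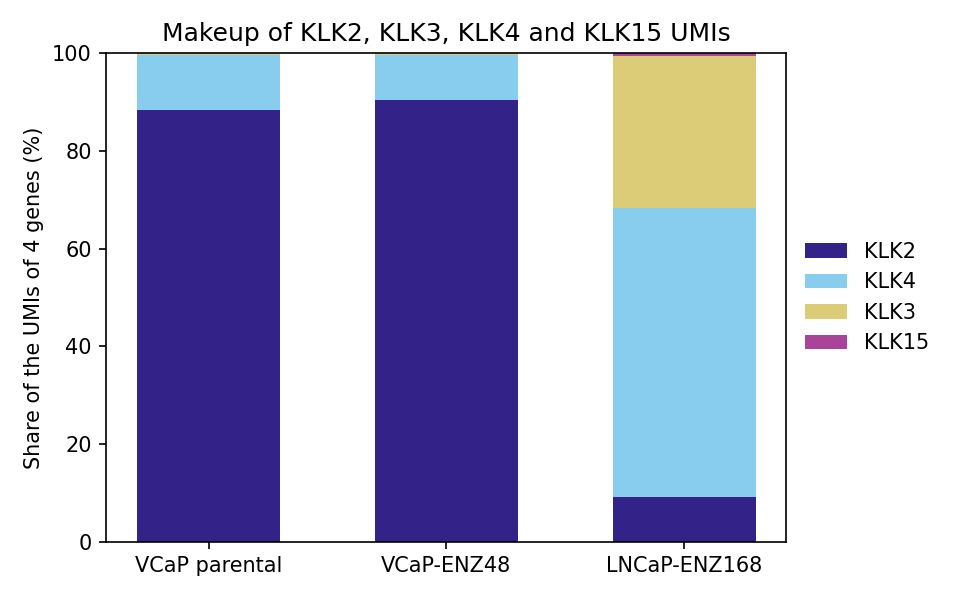
Share of KLK2, KLK4, KLK3 and KLK15 in the summed UMIs of these 4 genes (percent), 1 bar per library. KLK2 makes up 88.3% and 90.5% in the VCaP libraries and 9.18% in LNCaP-ENZ168, where KLK4 makes up 59.1%.

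The makeup of the kallikrein transcripts was set out as shares of the UMIs of KLK2, KLK3, KLK4 and KLK15. A UMI counts 1 captured transcript end, so these shares are not divided by gene length, and genes may differ in capture. The 4 genes summed to 34343 UMIs in VCaP parental, 48256 in VCaP-ENZ48 and 1862 in LNCaP-ENZ168. KLK2 held 88.3% (exact binomial 95% interval 87.9 to 88.6%) in VCaP parental, 90.5% (90.2 to 90.7%) in VCaP-ENZ48 and 9.18% (7.91 to 10.6%) in LNCaP-ENZ168. KLK4 held 11.2%, 9.13% and 59.1% in the same order. KLK3 held 0.434%, 0.323% and 31.1%. Per 1000 KLK2 UMIs there were 4.91 KLK3 UMIs (4.16 to 5.77) in VCaP parental, 3.57 (3.03 to 4.18) in VCaP-ENZ48 and 3392 (2855 to 4047) in LNCaP-ENZ168. The VCaP intervals overlapped between 4.16 and 4.18. Per 1000 KLK4 UMIs there were 9.08 KLKP1 UMIs (6.32 to 12.7) in VCaP parental, 3.63 (2.07 to 5.91) in VCaP-ENZ48 and 74.5 (58.8 to 93.4) in LNCaP-ENZ168.

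Short exposure to enzalutamide was set against vehicle in VCaP cells. KLK2 and KLK4 were both at higher levels in the treated library. KLK4 was 1.56-fold higher (95% interval 1.49 to 1.63), and KLK2 1.965-fold (1.94 to 1.99). KLK15 was 2.36-fold higher on few UMIs (1.36 to 4.18), KLK3 1.43-fold (1.13 to 1.80), and KLKP1 stood at 0.624 of the vehicle level with an interval that spans 1 (0.322 to 1.16). The KLK15 level in VCaP parental and the KLKP1 level in VCaP-ENZ48 lay under the highest marker of other cell types in the same library. On the log2 scale of CPM + 1, the differences were 0.97 for KLK2, 0.64 for KLK4, 0.78 for KLK15, 0.46 for KLK3 and -0.40 for KLKP1.

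KLK2 and KLK4 averaged 10 CPM or more over both libraries, and neither reached 2-fold in either direction. Of the 7729 genes at or above that average, 8.19% were higher and 6.77% were lower by at least 2-fold in VCaP-ENZ48. KLK2 was just under 2-fold, and 661 genes had a log2 ratio as high or higher, while 1097 were at or above KLK4. The median of all these genes was -0.07. KLK2 passed 2-fold under 4 of the alternatives tried, up to a log2 ratio of 1.10 without mitochondrial and ribosomal protein genes in the total, and stood at 0.68 with trimmed-mean (TMM) scaling. The median of all genes shifted by -0.28 with TMM, and KLK2 minus that median was 1.04 with the library total and 1.03 with TMM. Scaling applies a common factor to all genes of a library, so this difference stays nearly the same by construction and is no check.

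KLK3 in VCaP parental leaned on 1 cell. That cell held 16 of the 149 KLK3 UMIs, and the next highest cell had 4. Without the cell of most KLK3 UMIs in each library, KLK3 had 6.82 CPM (5.71 to 8.08) in VCaP parental and 10.7 CPM (9.03 to 12.5) in VCaP-ENZ48, a 1.56-fold difference (1.23 to 1.99). This alternative was chosen after seeing the data. Among barcodes whose last letter was a base and not N, the KLK3 log2 ratio was 0.01. Such barcodes were few, 138 in VCaP parental and 127 in VCaP-ENZ48.

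LNCaP-ENZ168 was set against VCaP-ENZ48, both under enzalutamide but differing in line and time, and in the share of barcodes ending in N. VCaP-ENZ48 is thus shared by this comparison and the one before it. KLK2 was 113 times lower in LNCaP-ENZ168 (97.0 to 132), and only 16 of 8854 genes had a log2 ratio as low or lower. KLK3 was 8.42-fold higher (7.05 to 10.1), and 254 genes were at or above it. KLKP1 was 11.6-fold higher (6.74 to 21.3) and KLK4 was 1.77 times lower (1.65 to 1.89). KLK15 was at 0.656 of the VCaP-ENZ48 level, with an interval of 0.302 to 1.31.

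Of the 3 members averaging 10 CPM or more, 1 was higher by at least 2-fold, KLK3, and 1 was lower, KLK2. Over the 8854 genes, 35.5% were higher and 11.1% lower by at least 2-fold, with a median log2 ratio of 0.65. KLK4 stood at -0.82 on the log2 scale with the library total, and passed 2-fold with TMM scaling (-1.35), median-of-ratios scaling (-1.31), the total without mitochondrial and ribosomal protein genes (-1.07) and cells of 5000 to 20000 UMIs (-1.01). Against VCaP parental, LNCaP-ENZ168 had KLK2 57.4 times lower (49.4 to 67.1), KLK3 12.03-fold higher (10.03 to 14.5), KLKP1 7.24-fold higher (4.82 to 11.1) and KLK4 at 0.882 of the level (0.825 to 0.944). These values depend on the scaling. On the log2 scale, KLK4 went from -0.18 with the library total to -0.996 with TMM and -0.90 with median-of-ratios, KLK2 from -5.79 to -6.59 and -6.50, and KLK3 from 3.43 to 2.65 and 2.74.

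**Figure D3:**
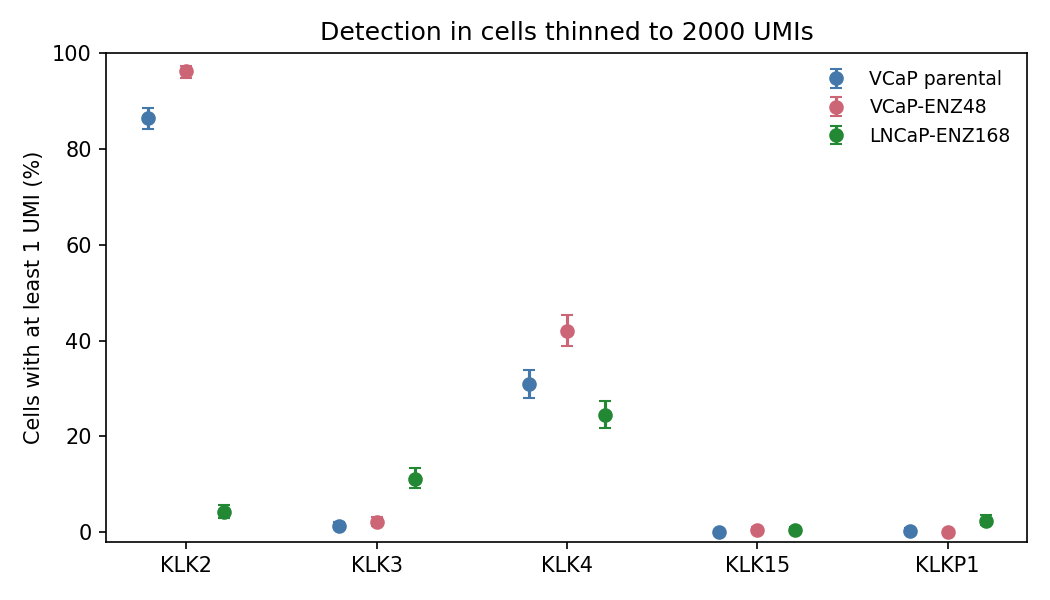
Share of cells with at least 1 UMI of each gene (percent) after each cell was thinned to 2000 UMIs, in 997 VCaP parental, 917 VCaP-ENZ48 and 943 LNCaP-ENZ168 cells. Bars are exact binomial 95% intervals; KLK2 is found in most VCaP cells, KLK4 in an intermediate share of every library, and KLK15 and KLKP1 in few cells.

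KLK2 was found in nearly every VCaP cell, whereas KLK3 was found in a minority of cells in all 3 libraries. Since detection follows depth, each cell was thinned to 2000 UMIs, which left out as too shallow 30 cells in VCaP-ENZ48, 1 in LNCaP-ENZ168 and none in VCaP parental. KLK2 was then found in 86.4% of VCaP parental cells (84.1 to 88.4%), 96.2% of VCaP-ENZ48 cells (94.7 to 97.3%) and 4.24% of LNCaP-ENZ168 cells (3.05 to 5.73%). Unthinned, the shares were 100%, 99.8% and 13.3%. KLK4 was found in 30.9% (28.0 to 33.9%), 42.1% (38.9 to 45.4%) and 24.5% (21.8 to 27.4%) of thinned cells, and in 91.8%, 81.8% and 53.5% of unthinned cells. Its thinned shares had the order of its CPM, whereas the unthinned shares had the order of median depth.

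KLK3 was found in 1.30% of thinned VCaP parental cells (0.696 to 2.22%), 2.07% of VCaP-ENZ48 cells (1.25 to 3.22%) and 11.1% of LNCaP-ENZ168 cells (9.20 to 13.3%). Unthinned, it was found in 11.3%, 13.5% and 21.0% of cells. The VCaP shares did not differ beyond their intervals. KLKP1 was found in 0.301%, none and 2.44% of thinned cells, and KLK15 in none, 0.436% and 0.424%. For 0 of 997 cells the exact upper bound was 0.369%, and for 0 of 917 cells it was 0.401%. These libraries hold cell lines only, with no cell type that should lack the prostate kallikreins, so the share of cells that free RNA would mark was not measured. The part of free RNA in the low shares was not tested.

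**Figure D4:**
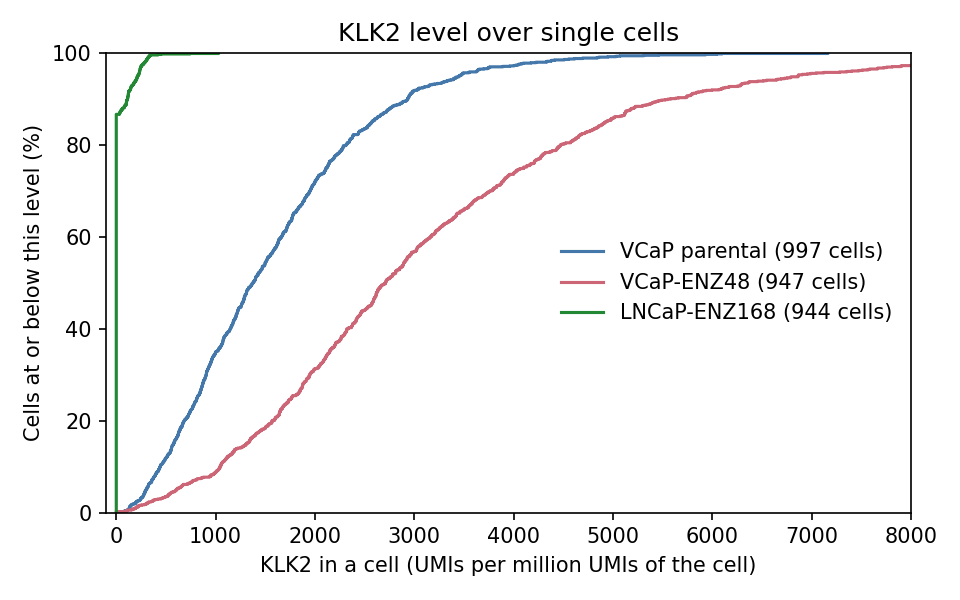
Cumulative share of cells (percent) at or below each KLK2 level (CPM within the cell) in VCaP parental (997 cells), VCaP-ENZ48 (947) and LNCaP-ENZ168 (944). The VCaP-ENZ48 curve lies to the right of the VCaP parental curve at nearly every level and its highest cells lie beyond the axis, and 86.7% of LNCaP-ENZ168 cells are at 0.

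Over single cells, KLK2 was spread widely in both VCaP libraries, and most of the distribution stood higher in VCaP-ENZ48. The KLK2 level of a cell ran from 42.3 CPM through a median of 1378 to 7166 CPM in VCaP parental, with quartiles of 815 and 2112. In VCaP-ENZ48 the lowest cell had 0, the median was 2709 and the highest 14939.6 CPM, with quartiles of 1767 and 4101. Of VCaP-ENZ48 cells, 83.4% lay above the VCaP parental median and 44.4% above its 90th percentile. Of VCaP parental cells, 12.9% lay above the VCaP-ENZ48 median. The distributions thus overlapped, and 2 cells of VCaP-ENZ48 had no KLK2 UMI. These levels are from unthinned cells, whose median depth was 17817 UMIs in VCaP parental and 11224 UMIs in VCaP-ENZ48. Shallower cells carry more counting error, and the part of depth in the extremes was not tested.

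The variance of thinned KLK2 counts was 2.29 times their mean in VCaP parental and 3.55 times in VCaP-ENZ48. These ranked 17th of 2940 and 18th of 2712 genes averaging 0.1 UMIs or more per cell, whose median ratios were 1.03 and 1.06. KLK4 had lower ratios, 1.22 in VCaP parental, 1.31 in VCaP-ENZ48 and 1.35 in LNCaP-ENZ168, ranked 226th, 215th and 194th. Such a ratio can rise with the mean of a gene. Mean thinned counts in VCaP parental and VCaP-ENZ48 were 3.14 and 6.58 for KLK2, and 0.399 and 0.613 for KLK4. The ratios and ranks thus do not show which gene was more spread relative to its mean. In LNCaP-ENZ168, KLK3 had a ratio of 2.68, ranked 16th of 3875 genes. The cell with most KLK3 held 35 of its UMIs among 12684, the next highest cell held 21, and 79.0% of cells had none at full depth. Leaving out the cell of 35 gave 86.5 CPM (79.4 to 94.1) for the library.

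**Figure D5:**
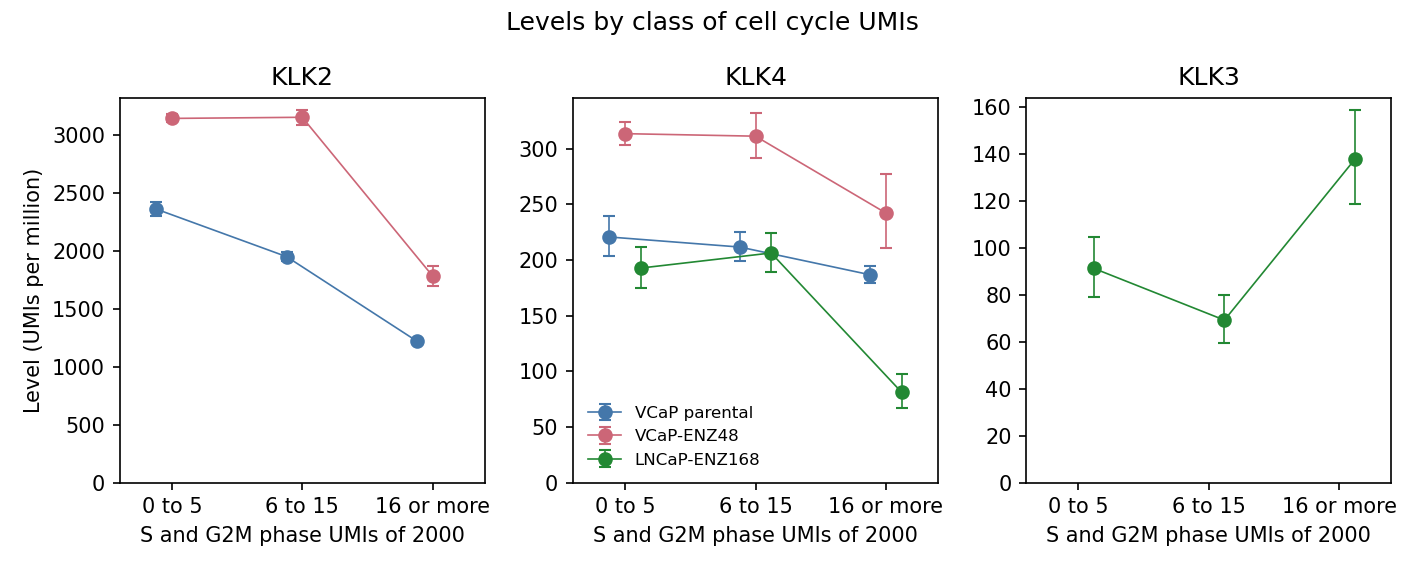
Level (CPM) of KLK2, KLK4 and KLK3 in cells grouped by the number of S and G2M phase UMIs among 2000 thinned UMIs. Points are sums over the cells of a class in 1 library and bars are exact Poisson 95% intervals; KLK2 is drawn for the VCaP libraries and KLK3 for LNCaP-ENZ168, and KLK2 and KLK4 are lowest in the class of 16 or more.

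The VCaP libraries differed in cycling, so the levels were also read within classes of S and G2M phase UMIs. The 97 S and G2M phase genes made up 1.51% of UMIs in VCaP parental, 0.286% in VCaP-ENZ48 and 0.635% in LNCaP-ENZ168. Cells were classed by 0 to 5, 6 to 15 or 16 and more such UMIs after thinning. These classes are ranges of a score and not cell types. On either side of the first limit, at 5 or 6 UMIs, lay 100 VCaP parental, 185 VCaP-ENZ48 and 202 LNCaP-ENZ168 cells. The classes held 157, 248 and 592 cells of VCaP parental, 683, 196 and 38 of VCaP-ENZ48, and 318, 448 and 177 of LNCaP-ENZ168.

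In VCaP parental, KLK2 was lower in each higher class, at 2358 CPM (2300 to 2416), 1948 CPM (1908 to 1988) and 1219 CPM (1199 to 1238). The drop was also present in UMIs per cell, at 40.4, 37.5 and 24.8, although median depth was 15824, 17023 and 18495 UMIs. In VCaP-ENZ48, KLK2 was level over the first pair of classes, at 3139 CPM (3105 to 3173) and 3149 CPM (3085 to 3214), and lower at 1781 CPM (1694 to 1871) in the last. The difference between the VCaP libraries was 1.33-fold (1.30 to 1.37) in the class of 0 to 5 UMIs, 1.62-fold (1.57 to 1.66) in the middle class and 1.46-fold (1.39 to 1.54) in the last. Each of these was smaller than the 1.965-fold over all cells.

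KLK4 moved less with these classes in VCaP. It had 221, 212 and 187 CPM in VCaP parental and 313, 311 and 242 CPM in VCaP-ENZ48. Its difference between the VCaP libraries was 1.42-fold (1.30 to 1.55), 1.47-fold (1.34 to 1.61) and 1.30-fold (1.12 to 1.49) within the classes. In LNCaP-ENZ168, KLK4 had 193 CPM (175 to 212), 206 CPM (189 to 224) and 81.2 CPM (66.8 to 97.8). KLK3 ran differently there, with 91.1 CPM (79.1 to 104), 69.1 CPM (59.5 to 79.9) and 137.5 CPM (119 to 159), highest in the class of most cycle UMIs. That class held the cell of 35 KLK3 UMIs, and without it KLK3 there was at 113 CPM (95.8 to 132). This interval overlaps that of the first class and not that of the middle class. The next highest cell of this library held 21 KLK3 UMIs and was kept, and the intervals cover counting error only. KLK2 in LNCaP-ENZ168 had 25.8, 29.7 and 24.1 CPM, with overlapping intervals. KLKP1 in LNCaP-ENZ168 had 15.8 CPM (11.04 to 21.8), 14.7 CPM (10.4 to 20.0) and 5.12 CPM (2.06 to 10.6), the last on 7 UMIs.

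In the VCaP libraries, cells rich in KLK2 were not generally rich in KLK4. Over thinned cells, the Spearman rho of KLK2 and KLK4 was -0.05 in VCaP parental (997 cells) and -0.02 in VCaP-ENZ48 (917 cells). These cells share 1 library and a fixed number of UMIs, and such small values in sparse counts are no finding. VCaP cells were also ranked by KLK2 level and cut into 4 bins of equal size. In VCaP parental, KLK4 went from 218 CPM (205 to 232) in the lowest to 171 CPM (159 to 183) in the highest bin. Those intervals did not overlap. In VCaP-ENZ48, KLK4 went from 338 to 326 CPM, with 272 CPM in the next to highest bin. KLK3 had 5.11 (3.27 to 7.60), 5.53 (3.68 to 7.99), 10.6 (8.02 to 13.9) and 9.16 CPM (6.60 to 12.4) over the bins of VCaP parental, where the intervals of the lowest and highest bins overlapped. The next to highest of these bins had 55 KLK3 UMIs, 16 of them from 1 cell, and leaving that cell out was not tried here. KLK3 went from 5.53 (3.33 to 8.64) through 7.93 and 11.1 to 19.3 CPM (14.9 to 24.6) over the bins of VCaP-ENZ48. The part of KLK2 reads assigned to KLK3 in these values was not tested. Per 1000 KLK2 UMIs, KLK3 stood at 10.3 (6.60 to 15.4), 5.07, 6.15 and 3.11 (2.24 to 4.20) over the bins of VCaP parental, and at 5.12, 3.53, 3.34 and 3.45 over those of VCaP-ENZ48. The bins were set by KLK2, the denominator of this ratio, so its direction is partly fixed by that choice. In VCaP-ENZ48 the intervals of all 4 bins overlapped. The cycle share of UMIs fell from 2.47% in the lowest to 0.672% in the highest KLK2 bin of VCaP parental, and from 0.475% to 0.204% in VCaP-ENZ48. Its part in the KLK3 and KLK4 values was not tested.

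In LNCaP-ENZ168, cells with a KLK3 UMI more often had a KLK4 UMI. After thinning, 41.9% of the 105 cells with KLK3 also had KLK4 (exact 95% interval 32.3 to 51.9%), against 22.3% of the 838 cells without KLK3 (19.5 to 25.3%). The rho of KLK3 and KLK4 was 0.15 over 943 cells. Of the 40 cells with KLK2, 40.0% had KLK4 (24.9 to 56.7%) and 17.5% had KLK3 (7.34 to 32.8%), against 23.8% and 10.9% of the other cells. The intervals overlapped for both, with 21.1 to 26.7% for KLK4 and 8.90 to 13.1% for KLK3 in cells without KLK2. At full depth 57 cells held both KLK2 and KLK3. KLKP1 was found in 3.03% of cells with KLK4 and 2.25% of those without, with overlapping intervals.

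ACPP was among the 5 genes whose thinned counts went most with KLK2 in both VCaP libraries. The 5 highest in VCaP parental, among 2806 genes found in at least 10% of cells, were ACPP (rho 0.36), STEAP1 (0.23), NPY (0.21), RPL13A (0.19) and GAS5 (0.18). ACPP encodes prostatic acid phosphatase, STEAP1 a surface protein of prostate cells and NPY the secreted neuropeptide Y, while RPL13A encodes a ribosomal protein and GAS5 a noncoding RNA. In VCaP-ENZ48, among 2541 genes, they were SPON2 (0.30), ACPP (0.29), ITM2A (0.24), RDH11 (0.23) and TSPAN8 (0.19). SPON2 encodes a secreted matrix protein, RDH11 a retinol dehydrogenase, and ITM2A and TSPAN8 membrane proteins. For KLK3 in LNCaP-ENZ168, among 3665 genes, the highest were KLK4 (0.15), the glycolysis gene TPI1 (0.12), and SYT4, PRNP and PLPP2 (each 0.11). All of these are descriptions over cells of 1 library.

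Other genes of the kallikrein system were listed as inhibitors, substrates and receptors. SERPINA3 and SERPINA5, inhibitors of PSA and other proteases in plasma and seminal fluid, were not analysed here. SPINT2, a Kunitz-type inhibitor of serine proteases, had 567, 445 and 1036 CPM in VCaP parental, VCaP-ENZ48 and LNCaP-ENZ168. SERPINB6, an intracellular protease inhibitor, had 102, 133 and 286 CPM. Among substrates, IGFBP3, which binds insulin-like growth factors and can be cleaved by PSA, had 25.5, 98.9 and 31.8 CPM. Of the 6 genes of this list averaging 10 CPM or more, it was the 1 to pass 2-fold between the VCaP libraries, with a log2 ratio of 1.92 (1.81 to 2.11 on the scale without pseudocount). None of the 6 was lower by 2-fold, and their median was 0.50. Over all genes 8.19% were higher and 6.77% lower, with a median of -0.07. The semenogelin genes SEMG1 and SEMG2, which encode the main seminal substrates of PSA, had at most 1 UMI in any library and are named outside the naming rule, after their values were seen. FN1, encoding fibronectin, had 0.512, 1.19 and 53.7 CPM. Against VCaP-ENZ48, LNCaP-ENZ168 had 4 of 8 genes of this list higher and 2 lower by at least 2-fold, beside 35.5% higher and 11.1% lower over all genes.

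Other secretory and luminal genes of the prostate gave a comparison for the kallikreins. ACPP had the same order of levels as KLK2, with 1959, 3767 and 80.8 CPM in VCaP parental, VCaP-ENZ48 and LNCaP-ENZ168. Its log2 ratio was 0.94 (0.92 to 0.96) between the VCaP libraries and -5.53 for LNCaP-ENZ168 over VCaP-ENZ48. FOLH1, encoding prostate-specific membrane antigen, had 315, 710 and 1009 CPM and was the 1 of 6 genes of this list past 2-fold between the VCaP libraries, with 1.17 (1.13 to 1.22). None of the 6 was lower by 2-fold, beside 8.19% higher and 6.77% lower over all genes, and the median was 0.42. SPDEF, a luminal transcription factor, had 56.3, 84.6 and 58.0 CPM, and STEAP2, a metalloreductase, 275, 331 and 998 CPM. TRPM8, a cation channel, had 103, 85.2 and 0.9504 CPM, and PDLIM5, a cytoskeletal adaptor, 89.3, 68.5 and 76.2 CPM. With the library total, TRPM8 was thus near 0 in LNCaP-ENZ168, whereas STEAP2 and FOLH1 were highest there. Set against VCaP-ENZ48 on the log2 scale, STEAP2 stood 1.59 higher and FOLH1 0.51 higher, beside a median of 0.65 for all genes. TMM scaling shifted that median by -0.52, about the size of the FOLH1 difference. Which of these libraries held more FOLH1 thus depends on the scaling and was not resolved.

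The study's signature of androgen activity includes KLK2 and KLK3, and its 18 other genes are set beside them here. Of these, 11 averaged 10 CPM or more over the VCaP libraries. None was higher by 2-fold and 5 were lower, beside 8.19% higher and 6.77% lower over all genes. The median log2 ratio was -0.79 beside -0.07 for all genes. ACSL3, a fatty acid ligase, had 412 CPM in VCaP parental and 138 CPM in VCaP-ENZ48 (log2 ratio -1.58). PMEPA1, a membrane regulator of TGF-beta signalling, had 212 and 98.5 CPM (-1.10), and FKBP5, a chaperone of steroid receptors, had 66.9 and 23.8 CPM (-1.45). CENPN, a centromere protein, had 55.1 and 10.4 CPM (-2.30), beside a cycle share of 1.51% and 0.286%. ABCC4, an efflux transporter, had 53.1 and 57.3 CPM (0.11), and C1orf116, an androgen-induced gene, had 40.9 and 36.4 CPM (-0.16). KLK2 at 0.97 and KLK4 at 0.64 thus stood above the median of this signature in the same pair of libraries. KLK4 is not one of its genes.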

How the data were processed

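Drop-seq libraries of VCaP and LNCaP cells, 1 per group, were read from the deposited files. The authors made UMI counts per gene and cell barcode with STAR, Picard and the Drop-seq tools, on GRCh38 with Gencode annotation and 1000 expected cells, and the deposited counts are raw. Positions here are from Gencode v44. The members and gene lists were chosen with earlier results of these data known.

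Cells with at least 300 genes, 500 UMIs and at most 25% mitochondrial UMIs were kept, and doublets were not called. UMIs were summed over cells and given per 1000000 UMIs (CPM), which carries the depth of each library into the intervals. Ratios are log2 of CPM + 1, with calls at 2-fold among genes of a mean of at least 10 CPM. Intervals are exact (Poisson for sums, conditional binomial for ratios, Clopper-Pearson for shares), at 95%, and cover counting error only. A count of 0 was taken to allow up to 3 counts. For shares, correlations and classes, cells were thinned without replacement to 2000 UMIs. One older symbol (ACPP) was matched through RefSeq.

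Named genes were the 5 members, other kallikreins of at least 1 CPM, the 3 most abundant genes and 3 extremes each way of the androgen activity signature, kallikrein system and secretory genes of at least 50 CPM, the 5 genes most correlated over cells, and KRT8, KRT18 and ERG as checks. A gene of the signature that this rule names is not reported here. Steps were tested on simulated data. Alternatives covered cell filters, barcodes, scaling by edgeR's TMM factors or median of ratios, weighting, depth, cycling, pseudocount and minimum. Leaving out the cell of most KLK3 UMIs was added after seeing the data. Python 3.11.15, numpy 2.4.6, pandas 2.3.3, scipy 1.17.1, matplotlib 3.10.9, R 4.3.3 and edgeR 4.0.16 were used.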

Additional observations from a re-analysis of the deposited data

Results flagged for a closer look

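Some UMIs were also present in data that the comparisons do not use. Among tissue kallikreins outside the 5 genes, KLK12 had 5 UMIs in VCaP parental, above the 3 counts that a count of 0 allows. This was 0.256 CPM (0.083 to 0.598). Markers of immune, stromal and basal cells reached up to 1.54 CPM in that library, so 5 UMIs do not show expression of KLK12. KLK2 had 32 UMIs in the 3 barcodes of VCaP parental that the cell filter left out, 821 UMIs in the 53 of VCaP-ENZ48 and 10 UMIs in the 56 of LNCaP-ENZ168. Over the UMIs of those barcodes this was 1793, 3371 and 49.97 CPM, and the libraries kept their order. No group had 4 or more samples, so no sample could be examined as an outlier.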

How the results depend on the processing

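No paired analysis was possible because there was 1 library in each group, and no replicate could be left out. Values below are log2 ratios. For KLK2 in VCaP-ENZ48 over VCaP parental, 0.97 became 1.01 without deep barcodes, 0.77 with barcodes ending in a base, 1.00 with cells weighted equally, 0.68 with TMM, 0.74 with median-of-ratios, 1.10 without mitochondrial and ribosomal protein genes, 1.08 in cells of 5000 to 20000 UMIs and 0.41 in cells of few cycle UMIs. KLK3 went from 0.46 to 0.010 with barcodes ending in a base and to 0.97 when summed with KLK2. KLK4 went from 0.64 to 0.35 with TMM, 0.41 with median-of-ratios, 0.77 without mitochondrial and ribosomal protein genes, 0.71 in cells of 5000 to 20000 UMIs and 0.50 in cells of few cycle UMIs.

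For LNCaP-ENZ168 over VCaP-ENZ48, KLK2 went from -6.76 to -7.28 with TMM, -7.24 with median-of-ratios, -7.02 without mitochondrial and ribosomal protein genes and -4.68 when summed with KLK3. KLK3 went from 2.96 to 2.44 with TMM, 2.48 with median-of-ratios and 2.61 with a pseudocount of 5 CPM, and reversed to -4.68 when summed with KLK2, as it did against VCaP parental (-3.70), since the sum is mostly KLK2 in VCaP. KLK4 went from -0.82 to -1.35 with TMM, -1.31 with median-of-ratios, -1.07 without mitochondrial and ribosomal protein genes, -1.01 in cells of 5000 to 20000 UMIs and -0.70 in cells of few cycle UMIs. KLKP1 went from 2.72 to 1.56 with a pseudocount of 5 CPM.

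Genes past 2-fold between the VCaP libraries, 633 higher and 523 lower, became 1018 higher without mitochondrial and ribosomal protein genes, 1937 higher with a minimum of 1 CPM, and 146 higher and 245 lower with a minimum of 50 CPM. There were 1032 lower with TMM and 919 with median-of-ratios. For LNCaP-ENZ168 over VCaP-ENZ48, 3145 higher and 979 lower became 1443 higher with TMM, 1535 with median-of-ratios, 5224 higher and 3070 lower with a minimum of 1 CPM, 1031 higher and 320 lower with a minimum of 50 CPM, and 1473 lower without mitochondrial and ribosomal protein genes. Apart from scaling, filter and summing by construction, the cause of these moves was not tested. The other 53 values of these ratios between the VCaP libraries, and 54 for LNCaP-ENZ168 over VCaP-ENZ48, lay within the counting interval of the reported one. Against VCaP parental, 52 did and 15 more moved beyond it. Outside the ratios, 48 alternative values of levels moved and 120 did not. Those counts were 40 and 95 for shares of cells, 22 and 170 for rank correlations, and 21 and 51 for cycle class levels. The rho of KLK2 and KLK3 in LNCaP-ENZ168 was 0.04 over thinned cells and 0.22 as CPM per cell without thinning. Depth limits KLK15 and KLKP1, which have at most 82 UMIs in a library.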

Other observations

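TGM4, a prostate transglutaminase that clots semen, was on the list of secretory genes but under the expression minimum, and was singled out after its values were seen. It had 1 UMI (0.0512 CPM) in VCaP parental, 101 UMIs (7.06 CPM) in VCaP-ENZ48 and 0 in LNCaP-ENZ168. The counting interval of the log2 ratio between the VCaP libraries, without a pseudocount, was 4.60 to 12.4.

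KLK3 in LNCaP-ENZ168 was also highest among the cells of lowest mitochondrial share. Among 4 equal bins of cells ranked by that share, the lowest had 143 CPM of KLK3 (126 to 162), and the others 76.5, 74.2 and 61.6 CPM. The lowest bin held 260 KLK3 UMIs. The cell of most KLK3 UMIs in this library held 35, and leaving it out was not tried for these bins. KLK4 over the same bins had 181, 187, 156 and 172 CPM. The cycle share of UMIs was 0.892% in the lowest bin and 0.597%, 0.461% and 0.539% in the others, and its part in the KLK3 values was not tested. In VCaP parental, KLK2 had 1270, 1507, 1673 and 1797 CPM over bins of rising mitochondrial share, and the cycle share over those bins was 2.00%, 1.54%, 1.31% and 1.14%. In VCaP-ENZ48, KLK2 had 3459, 2943, 2690 and 3319 CPM, with cycle shares of 0.345%, 0.336%, 0.225% and 0.219%. The part of cycling in these KLK2 values was not tested.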
